A study of Mus musculus with 22 samples.

Results

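The ciliary axoneme genes of mouse lung were taken as every row of the gene table whose symbol begins with Dnah, Dnai, Dnal, Rsph, Tekt or Cfap, plus Foxj1. The rule used names only and found 65 genes among 20938. They were 5 heavy chains of the outer dynein arm, 9 heavy chains of the inner arms, 5 intermediate and light chains, 7 radial spoke genes, 5 tektins, 33 Cfap genes (cilia and flagella associated proteins) and Foxj1. RNA-seq of whole lung gave FPKM (sequenced fragments scaled to transcript length and to the size of the library) for 22 libraries in 6 groups of BALB/c mice, spelled BABL/c in the genotype label. Per the treatment text, mice of every group were sensitized by injection into the peritoneum when 49 days old. They received a booster at 63 days and the first aerosol at 70 days. The sensitizing agent was not given in the sources used here. The long protocol ran 3 times a week for 4 weeks, with ovalbumin (OVA, the allergen; n = 4), methacholine (MCh, a muscarinic agonist that constricts airways; n = 4) or phosphate-buffered saline (PBS; n = 3). The short protocol ran on 3 consecutive days with OVA (n = 4), MCh (n = 4) or PBS (n = 3). The sources disagree in places. The titles call MCh and PBS mice normal while the treatment text calls them sensitized, the short MCh titles give 4 days, and the series design text speaks of tracheal tissue while each sample is labelled lung.

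The axoneme is the microtubule core of a motile cilium, with doublet microtubules around a central pair. Outer and inner dynein arms slide the doublets against each other, radial spokes and the central pair steer them, and tektins and other inner proteins stiffen the doublet walls. In the lung these genes are read mainly in multiciliated cells of the conducting airways, whose beating moves mucus. Commitment to that cell type runs through Gmnc and Mcidas, centriole amplification needs Deup1 and Ccno, and Foxj1 with RFX factors then switches on the axoneme genes. In whole lung, fewer multiciliated cells and less RNA per cell cannot be told apart.

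Depth read from whole-fragment steps was 15.1 to 25.3 fragments per kilobase at 1 FPKM, and 22.5% to 34.3% of genes were listed at 0 in a library. MCh long libraries a and c and MCh short library 1 had the most genes at 0. The numbers of the long OVA and MCh columns, taken as sets, did not match the replicate numbers of the titles, so their libraries are lettered a to d. Low array weights (under 0.25, a measure of how far a library strays from its group) fell on MCh long a and c and MCh short 1 and 4. Levels followed transcript length within libraries: Spearman rho between length and each gene's deviation from its own mean was -0.48 to -0.40 in OVA short libraries and -0.03 to 0.27 in PBS short libraries. MCh short library 4 stood apart at -0.65. Airway multiciliated markers were present (34 of 34 measured genes passed the filter), and all 8 male germ cell markers failed it, with summed FPKM of at most 0.372 in any library.

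RFX factors bind the half-site GTTGCC, which was searched on both strands of RefSeq windows from 250 bases before to 50 after each transcript start (GRCm38.p6). A window was found for 54 of the 65 genes. The half-site (GGCAAC on the other strand) was in 21 of their 61 windows (34.4%), against 4111 of 32851 windows of all genes (12.5%). Some genes have more than 1 window, and by gene it was in 19 of 54. It was in 4 of 8 tektin windows, 4 of 8 inner arm heavy chain windows, 11 of 29 Cfap windows and 0 of 5 outer arm heavy chain windows. The tektin windows with it belonged to Tekt1, Tekt2 and Tekt4. The inner arm ones belonged to Dnah10 and to the close copies Dnah7a, Dnah7b and Dnah7c, which are not independent cases. The forkhead core TGTTTAC was in 4 of 61 windows (6.56%), against 3.65% of all windows (GTAAACA on the other strand). A match is a run of letters and not a shown binding site. The window with the most half-sites, one of an inner arm chain with a pair and that of Dnah8, which moved apart from the other heavy chains, are printed with the half-site in capitals.
Cfap298, chr16:90934800-90935099, minus strand: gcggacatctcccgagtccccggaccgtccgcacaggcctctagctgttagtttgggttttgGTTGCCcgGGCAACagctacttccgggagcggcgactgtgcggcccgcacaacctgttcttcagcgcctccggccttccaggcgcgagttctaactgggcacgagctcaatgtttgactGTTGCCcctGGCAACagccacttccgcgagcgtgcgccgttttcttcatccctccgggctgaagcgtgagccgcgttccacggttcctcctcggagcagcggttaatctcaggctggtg
Dnah10, chr5:124724835-124725134, plus strand: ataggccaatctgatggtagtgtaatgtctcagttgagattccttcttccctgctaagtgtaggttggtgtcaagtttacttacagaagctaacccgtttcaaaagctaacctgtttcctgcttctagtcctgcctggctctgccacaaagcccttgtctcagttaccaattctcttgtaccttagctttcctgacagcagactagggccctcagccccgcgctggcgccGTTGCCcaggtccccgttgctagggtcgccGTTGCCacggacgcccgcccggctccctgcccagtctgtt
Dnah8, chr17:30626686-30626985, plus strand: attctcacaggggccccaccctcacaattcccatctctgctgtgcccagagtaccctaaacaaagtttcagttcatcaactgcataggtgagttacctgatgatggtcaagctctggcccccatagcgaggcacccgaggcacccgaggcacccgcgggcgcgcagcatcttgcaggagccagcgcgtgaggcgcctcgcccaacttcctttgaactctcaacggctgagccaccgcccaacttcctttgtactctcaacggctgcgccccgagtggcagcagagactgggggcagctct
Cfap298, a factor for building dynein arms in the cytoplasm, held 4 half-sites, 2 on each strand. Dnah10, a chain of an inner arm, held 2 in the same direction, and Dnah8, an outer arm chain best known from sperm flagella, held 0. The Dnah8 window lies inside the span of the gene given below, so the start of that span was not searched.

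Levels can be compared between genes only in the transcript table, since the gene table scales many genes by a length other than their own. Summed over transcripts, Foxj1 had the highest mean of all 65 genes at 32.3 FPKM (range 19.7 to 48.9 over 22 libraries). Cfap20, at the inner junction of the doublet, followed at 28.8 FPKM, and Cfap298 at 24.8 FPKM; the ranges of these 3 genes overlapped. Rsph1, of the spoke head, was at 20.7 FPKM. Among outer arm heavy chains Dnah5, the chain most often mutated in primary ciliary dyskinesia, averaged 3.70 FPKM, Dnah9 2.58 FPKM, Dnah11 1.45 FPKM and Dnah8 1.24 FPKM. Dnah17, also best known from sperm, was at 0.254 FPKM. Inner arm chains ran between 0.476 FPKM (Dnah7c) and 5.60 FPKM (Dnah6). Dnah7a, Dnah7b and Dnah7c are close copies, as are Rsph3a and Rsph3b, and their shares are uncertain. Cfap97d1 and Rsph6a, at 0.00244 and 0.00341 FPKM, failed the filter and the other 63 genes were tested.

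**Figure D1:**
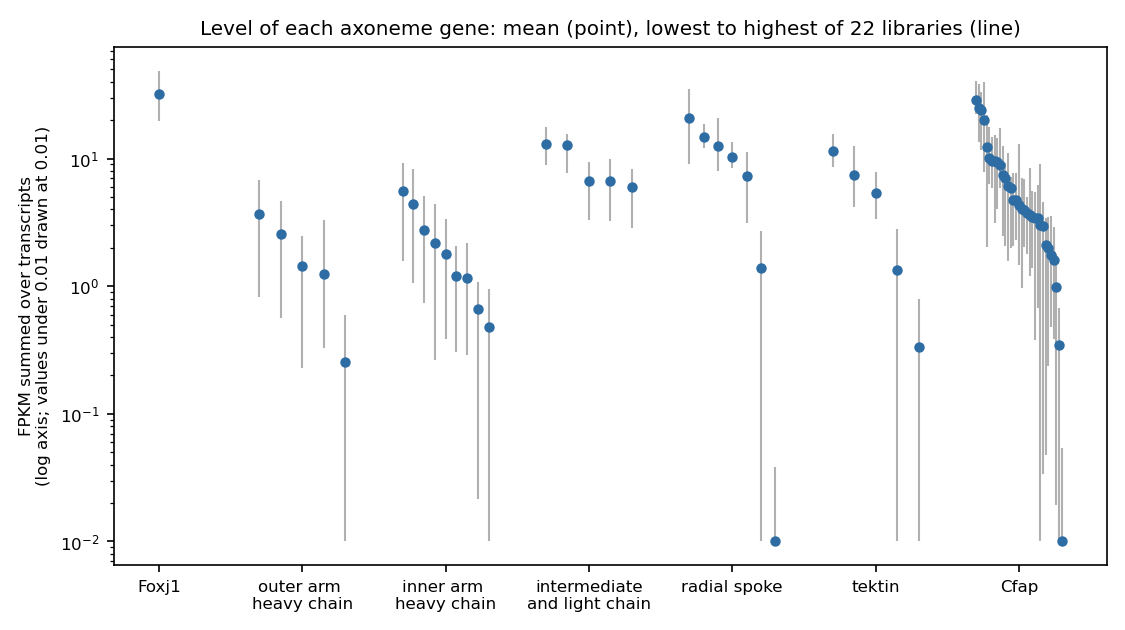
FPKM summed over transcripts for each of the 65 genes by role, on a log axis; points are means over 22 libraries and lines run between the lowest and highest library. Foxj1 (32.3 FPKM) stood at the top and the outer arm heavy chains lay at 3.70 FPKM and below.

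In 5 of the 6 groups 1 library was the lowest for over 40 of the 63 axoneme genes, and in MCh long there was no such library. OVA long library b was the lowest of its group for 57 of 63 tested genes, and OVA short library 2 for 51. PBS short library 2 was the highest of its group for 55 genes and library 3 the lowest for 51. PBS long library 1 was the lowest for 45 and MCh short library 4 for 41. MCh long library a was the lowest for 30 genes and the highest for 21, and library c the lowest for 28 and the highest for 12. The 9 multiciliated cell markers, among them Foxj1 itself, moved with these libraries in the OVA and PBS groups and not in MCh short. Their median deviation was -0.41 log2 units in OVA long library b and 0.31 to 0.42 in OVA long libraries a, c and d. It was -0.54 in OVA short library 2 and 0.01 to 0.16 in the other OVA short libraries, and 0.13 in PBS short library 2 and -0.53 in PBS short library 3. In MCh short library 4 the 9 markers did not share the low axoneme values. The axoneme median deviation there was -0.47, with -1.23 over heavy chains and -0.36 over the others. That of the 9 markers was 0.22, above MCh short libraries 2 (0.06) and 3 (0.07) and below library 1 (0.45). Their summed FPKM was the highest of the group (356 FPKM). Over the 34 airway multiciliated markers it was 0.06 log2 units in library 4, against -0.06, 0.09 and 0.48 in libraries 2, 3 and 1. Library 4 also had the steepest trend on length (rho -0.65). The share of multiciliated cells in these pieces of lung was not tested.

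**Figure D2:**
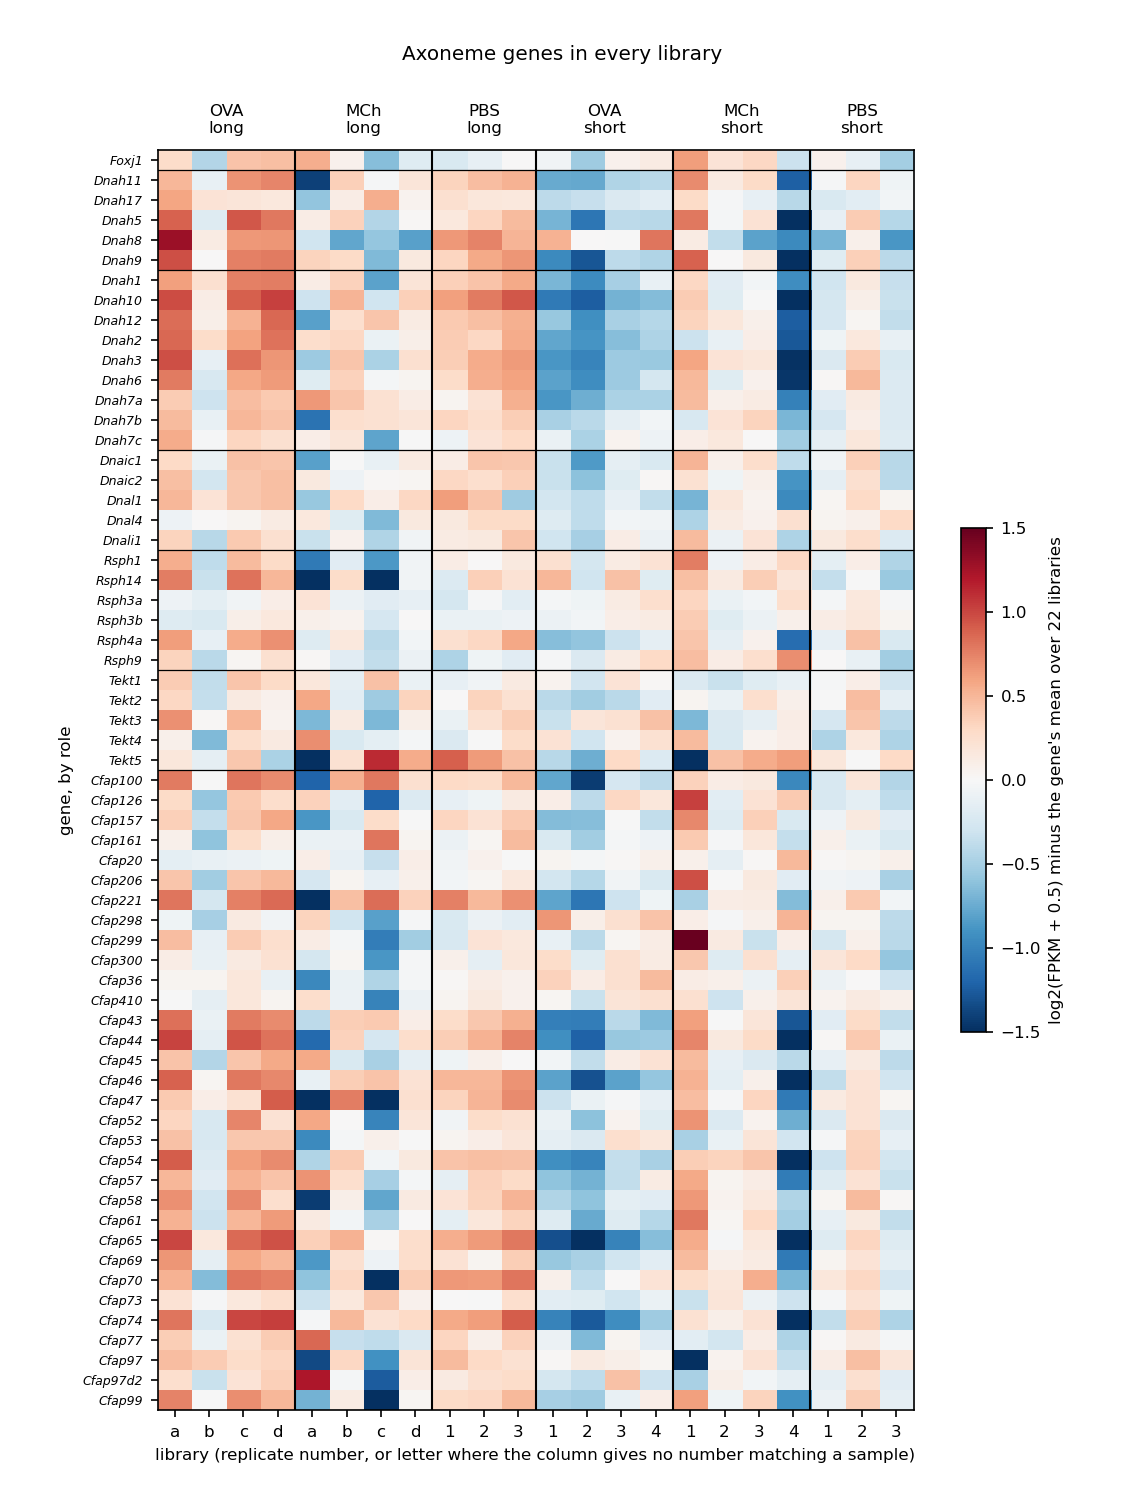
Each row is a tested gene and each column a library, coloured by log2(FPKM + 0.5) minus the gene's mean over 22 libraries. OVA long library b, lowest of its group for 57 genes, is pale or blue beside OVA long libraries a, c and d, and MCh short library 4, lowest for 41, is blue in most heavy chain rows.

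In lungs after short OVA, most axoneme genes had negative fold changes, and few passed the test. In limma's fit across all genes, 1 of 63 rose (Dnah8) and 1 fell (Dnah2), against 24.2% of all 15682 tested genes, 1950 higher (12.4%) and 1840 lower (11.7%). An unadjusted p under 0.05 was seen for 10 of the 63 genes, against 36.1% of all genes. Negative values were seen for 48 genes, and the median log2 fold change was -0.26 over the 63 genes and -0.06 over all tested genes. Axoneme genes share their libraries, so counts of signs here and below are not of independent genes. The shares of all genes with each sign are not given. All 4 OVA short libraries lay below all 3 PBS short libraries for 21 genes, against 29.2% of all genes, and above them for 2, Cfap298 and Cfap36, against 23.2%. The share of axoneme genes past the test lay below that of all genes, which is a description with no test of its own.

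Dnah2, a heavy chain of the inner arm, fell. It had 0.749, 0.658, 0.874 and 1.05 FPKM in OVA short lungs, against 1.55, 1.88 and 1.48 FPKM in PBS short lungs. The groups did not overlap. Its log2 fold change was -0.68 ± 0.24 (SE; limma adjusted p = 0.0467), on the log2(FPKM + 0.5) scale that holds for every fold change here and understates those of low genes. With the trend on length removed from each library the value was -0.11 (adjusted p = 0.70), and leaving out any one of OVA short libraries 1, 2 or 3 or of the PBS short libraries ended the call (adjusted p 0.0709 to 0.148). Removing the trend left the axoneme genes with one of the other sign (rho 0.33).

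Other heavy chains shared the sign of Dnah2 and did not pass. Dnah10 had 0.639, 0.508, 0.958 and 1.02 FPKM in OVA short lungs and 1.49, 2.03 and 1.39 FPKM in PBS short lungs (log2 -0.75 ± 0.36, adjusted p = 0.138). Dnah11, an outer arm chain, had 0.693, 0.679, 0.974 and 1.03 FPKM in OVA short lungs and 1.49, 2.02 and 1.43 FPKM in PBS short lungs (-0.68 ± 0.39, adjusted p = 0.224). Neither gene's groups overlapped. Dnah5 had 2.37, 1.70, 3.04 and 2.98 FPKM in OVA short lungs and 3.77, 5.56 and 2.95 FPKM in PBS short lungs, where the lowest PBS library lay within the OVA range (-0.59 ± 0.40, adjusted p = 0.316). Dnah9 was at -0.69 ± 0.44 (0.273), Dnah3 at -0.72 ± 0.38 (0.182) and Dnah6 at -0.73 ± 0.34 (0.125).

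The lowest value of any axoneme gene was that of Cfap65, a protein of the central pair known from sperm flagella as well as cilia. It had 7.28, 6.17, 9.20 and 12.0 FPKM in OVA short lungs, against 16.5, 23.8 and 16.5 FPKM in PBS short lungs (log2 -1.11 ± 0.43, adjusted p = 0.0686). The groups did not overlap, and MCh short library 4 was lower still at 3.60 FPKM. Cfap46, Cfap54, Cfap74 and Cfap221, which in Chlamydomonas sit in one projection of the central pair, each had all OVA short libraries below all PBS short libraries, with log2 values of -0.72, -0.61, -0.78 and -0.70 that did not pass (adjusted p 0.133 to 0.430). Cfap65 and these 4 were picked after their values were seen. Of all tested genes, 29.2% had every OVA short library below every PBS short library. Transcripts of Cfap65, Cfap46 and Cfap54 are long (5.73, 8.18 and 9.52 kb), and those of Cfap74 and Cfap221 shorter (2.365 and 2.51 kb). Their values with the length trend removed are not given here.

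Foxj1, tektins and radial spoke genes did not share the negative median of the heavy chains (-0.58): it was 0.06 over 5 tektins and 0.14 over 6 radial spoke genes. With the length trend removed the order turned: the median was -0.20 over the tektins and -0.11 over the radial spoke genes (5 of 6 negative), against -0.00 over the heavy chains. That removal left the axoneme genes with a trend on length of the other sign (rho 0.33), and the difference between roles was not tested. Foxj1, the forkhead factor of motile cilia, had 13.3, 9.39, 14.6 and 15.1 FPKM in OVA short lungs and 14.5, 12.7 and 9.56 FPKM in PBS short lungs (log2 0.09 ± 0.27, adjusted p = 0.854). Tekt1, which lies inside the doublet wall, had 9.64, 7.497, 10.7 and 9.36 FPKM in OVA short lungs and 9.16, 9.92 and 7.51 FPKM in PBS short lungs (0.06 ± 0.18, adjusted p = 0.847). The groups overlapped for both genes. Tekt2, another tektin, lay lower in every OVA short library, at 3.96, 3.62, 3.96 and 4.76 FPKM, than in any PBS short library, at 5.41, 7.67 and 4.88 FPKM (-0.48 ± 0.23, adjusted p = 0.127; 0.0262 with the length trend removed). Tekt3, Tekt4 and Tekt5 were at 0.20, 0.30 and -0.42, none past the test. Rsph1 was at 0.25 ± 0.26 (adjusted p = 0.537) and Rsph9, of the spoke head too, at 0.26 ± 0.20 (0.395), while the longer Rsph4a was at -0.45 ± 0.28 (0.258). Cfap298 was higher in all OVA short libraries, at 51.8, 34.6, 38.5 and 44.1 FPKM, than in PBS short libraries, at 33.6, 33.7 and 24.7 FPKM, and did not pass (0.45 ± 0.21, adjusted p = 0.134). The outer arm chains Dnaic1 (-0.35 ± 0.25), Dnaic2 (-0.18 ± 0.24) and Dnal1 (-0.41 ± 0.27), the inner arm chain Dnali1 (-0.26 ± 0.22) and the assembly factor Cfap300 (0.15 ± 0.24) had adjusted p of 0.303 to 0.702.

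The sign in short OVA followed transcript length. Over 62 axoneme genes with a length, Spearman rho between length and fold change was -0.58, and over 15557 tested genes it was -0.45. Without the heavy chains it was -0.63 over 48 genes. For genes of at least 9 kb the median was -0.59 over 15 axoneme genes and -0.57 over 431 tested genes, and under 2 kb it was -0.02 over 25 axoneme genes and 0.20 over 4617 tested genes. With the length trend removed the heavy chain median was -0.00 (-0.58 before), and the median of the 49 other axoneme genes was -0.27 (-0.18 before), against -0.06 over all genes. Over the 62 axoneme genes rho was then 0.33, so their trend was reversed and not removed. These rho values are across genes, which share their libraries and are not independent replicates.

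**Figure D3:**
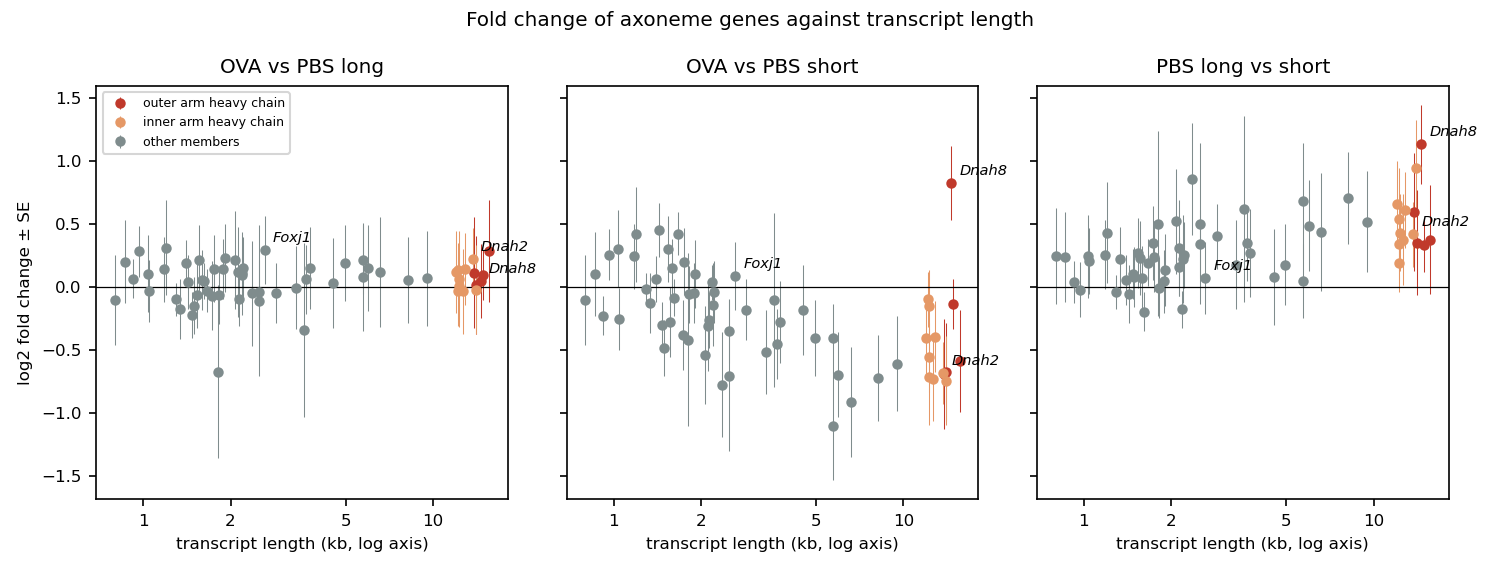
Log2 fold change (± SE) of each axoneme gene against its transcript length in kb on a log axis, for OVA vs PBS long, OVA vs PBS short and PBS long vs short. In short OVA the long heavy chains lie below 0 save Dnah8 at 0.82, and in long OVA rho was 0.11 over the same 62 genes.

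Dnah8 went the other way from the 13 other heavy chains in short OVA. It had 1.85, 1.15, 1.14 and 2.36 FPKM in OVA short lungs, 1.28, 0.774, 0.442 and 0.349 FPKM in MCh short lungs and 0.513, 1.24 and 0.398 FPKM in PBS short lungs. OVA short overlapped PBS short through PBS library 2, and MCh short through MCh library 1. The log2 fold change was 0.82 ± 0.29 over PBS short (limma adjusted p = 0.0478) and 0.83 ± 0.27 over MCh short (adjusted p = 0.0454). It was the only axoneme gene past the test in OVA vs MCh short, where 15.2% of all tested genes passed (9.37% higher, 5.82% lower). The call over PBS ended without OVA short library 1 or 4 or without PBS short library 1 or 3 (adjusted p 0.114 to 0.223). It also ended with quantile normalization (0.0818), the replicate block (0.0685), no filter (0.0563), transcript sums (0.0508) and pseudocounts of 0.1 (0.0518) and 1 (0.0503). The call over MCh ended without OVA short library 1 or 4 or without MCh short library 2, 3 or 4 (0.0762 to 0.146). A fit of the groups alone (0.0944), quantile normalization (0.0935), no filter (0.0541) and the replicate block (0.0516) ended it too. With the length trend removed the value was 1.41 (adjusted p = 0.0012). That step left axoneme folds with rho of 0.33 with length over PBS short and 0.35 over MCh short, so this value is not free of length.

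In the long protocol Dnah8 had 3.51, 1.30, 2.08 and 2.10 FPKM in OVA lungs, 0.832, 0.453, 0.603 and 0.432 FPKM in MCh lungs and 2.08, 2.26 and 1.85 FPKM in PBS lungs. All MCh long libraries lay below every OVA and PBS long library. It was also the one axoneme gene with all OVA long libraries above all MCh long libraries, against 9.6% of all genes, and 0 lay below, against 4.07%. The log2 fold change was 1.30 ± 0.27 for OVA over MCh long (adjusted p = 0.00644), the one axoneme gene past that test, where 6.06% of all genes passed (4.75% higher, 1.31% lower). It was -1.26 ± 0.29 for MCh over PBS long and 1.13 ± 0.32 for PBS long over short, and neither passed (adjusted p = 0.161 and 0.233). For OVA over PBS long it was 0.04 ± 0.29. The call for OVA over MCh long ended in a fit of the groups alone (adjusted p = 0.0526) and with quantile normalization (0.0849). MCh long libraries a and c had low array weights. The estimated fragments behind Dnah8 were 105 to 952 a library.

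Dnah8 lies at chr17:30624354-30877365 on the plus strand (mm10). Its span overlaps Glo1, a glyoxalase gene on the other strand, at a mean of 155 FPKM in the gene table. How far the spans overlap is not given here. The kit keeps strand, but whether the counting did was not given in the sources used here, so reads of both genes may be mixed. Glo1 had log2 fold changes of 0.51 ± 0.33 for OVA over PBS short (adjusted p = 0.278), 0.56 ± 0.30 for OVA over MCh long (0.256), -0.85 ± 0.33 for MCh over PBS long (0.243) and 0.57 ± 0.35 for PBS long over short (1). Glo1 had the sign of Dnah8 in these 4 comparisons. In OVA vs PBS long Glo1 was at -0.29 ± 0.33 (adjusted p = 1) and Dnah8 at 0.04, and the part of Glo1 in the Dnah8 values was not tested.

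**Figure D4:**
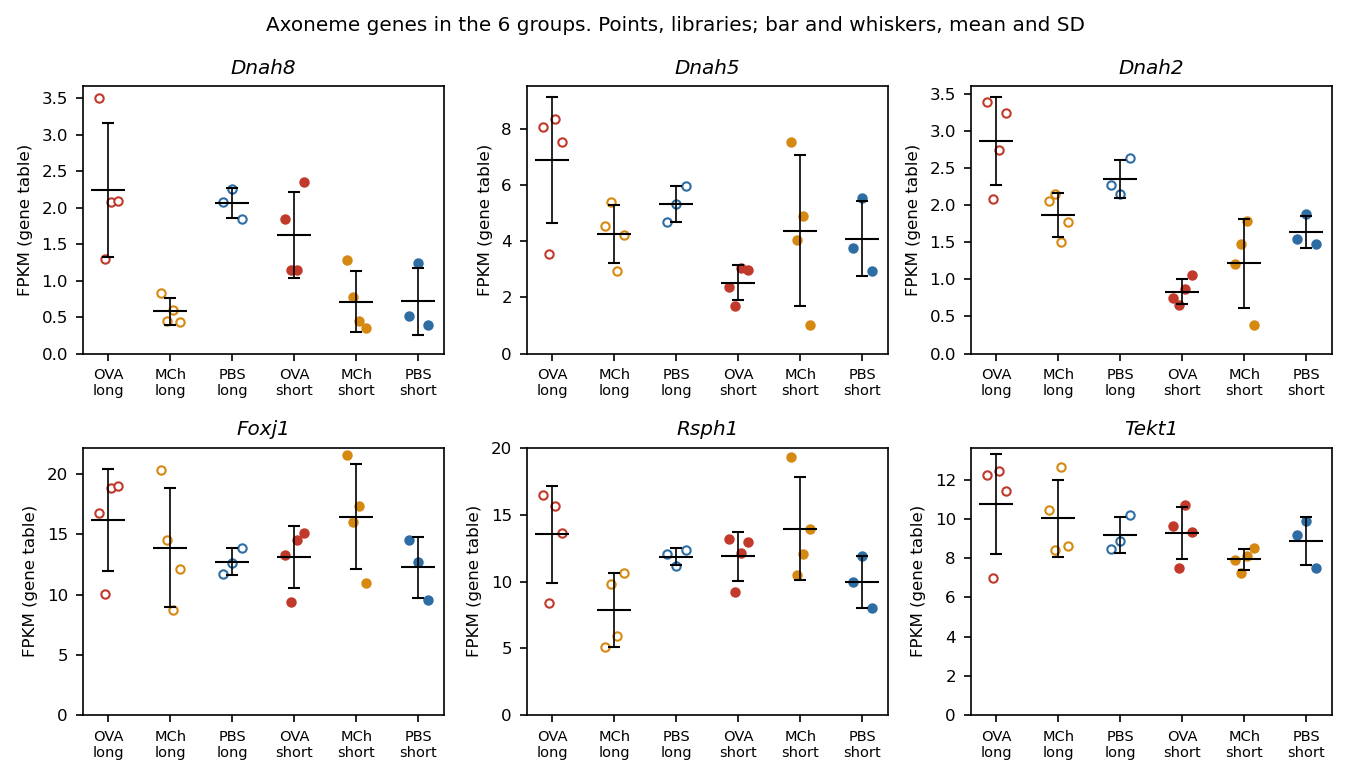
FPKM in the gene table for 6 axoneme genes by group, with library points and the mean ± SD. Dnah8 in MCh long libraries (0.432 to 0.832) lies below OVA and PBS long libraries, and Dnah2 in OVA short libraries (0.658 to 1.05) lies below PBS short libraries.

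Among genes upstream of the axoneme a minority rose in short OVA, and Foxj1 did not pass. Of 15 genes of the transcriptional and centriole programme of multiciliated cells, 4 rose in OVA vs PBS short (Mcidas, Foxn4, Deup1 and Cdc20b) and 0 fell, where 12.4% of all genes rose and 11.7% fell. The list median was 0.19 against -0.06 over all genes. Mcidas, a coactivator that starts multiciliogenesis, had 1.08, 0.888, 0.508 and 1.86 FPKM in OVA short lungs, against 0.123, 0.156 and 0.187 FPKM in PBS short lungs (log2 1.21 ± 0.21, adjusted p = 0.00036). Foxn4, a forkhead factor of the same step, had 1.08, 0.888, 0.377 and 0.963 FPKM in OVA short lungs, against 0.242, 0.0634 and 0.0602 FPKM in PBS short lungs (1.07 ± 0.24, adjusted p = 0.00265). Every OVA short library lay above every PBS short library for both genes, and MCh short library 1 was the highest MCh short library at 0.510 FPKM of Mcidas and 0.816 FPKM of Foxn4.

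Deup1, a scaffold of the deuterosome on which centrioles are multiplied, had 8.62, 6.67, 4.05 and 11.1 FPKM in OVA short lungs, against 1.85, 1.37 and 1.10 FPKM in PBS short lungs (log2 1.996 ± 0.53, adjusted p = 0.0095). Cdc20b, another deuterosome gene, had 0.600, 0.329, 0.0222 and 0.575 FPKM in OVA short lungs, against 0.0421, 0.0429 and 0.0537 FPKM in PBS short lungs (0.63 ± 0.17, adjusted p = 0.0121). These PBS values lie under the filter's 0.1 FPKM, as does Foxn4 in PBS short libraries 2 and 3. Mcidas in PBS short, at 0.123 to 0.187 FPKM, lies little above it. Fragments were estimated for the axoneme genes only, so the support of these low values is not given. OVA short library 3 was the lowest OVA library for all 4 genes and lay below PBS for Cdc20b. The calls of Mcidas and Foxn4 held in all 23 alternatives. Deup1 lost its call with a pseudocount of 0.1 (adjusted p = 0.0713) and without PBS short library 3 (0.0514), and Cdc20b without OVA short library 1 (0.0511), with the length trend removed (0.113), with the replicate block (0.0547) and when only OVA and PBS short libraries were fitted (0.0640).

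Gmnc, upstream of Mcidas, and Ccno, a centriole amplification gene, did not pass over PBS (0.43 ± 0.41 and 0.96 ± 0.49, adjusted p = 0.481 and 0.161). Over MCh short they passed, at 1.45 ± 0.38 and 1.42 ± 0.45 (adjusted p = 0.0119 and 0.0377), with Mcidas at 1.07 ± 0.19 (0.000605) and Foxn4 at 0.76 ± 0.22 (0.0224). Gmnc was low in MCh short, at 0.665, 1.15, 1.68 and 0.477 FPKM, below every PBS short library (2.66, 2.65 and 1.88 FPKM). With the length trend removed, MCh over PBS short was -1.03 ± 0.41 for Gmnc and -0.55 ± 0.48 for Ccno (limma adjusted p = 0.558 and 0.889). The RFX factors Rfx2 (-0.54 ± 0.26, adjusted p = 0.134) and Rfx3 (-0.45 ± 0.55, 0.600), the p53 relative Trp73 (-0.01 ± 0.31, 0.992) and Myb (0.47 ± 0.25, 0.180) did not pass over PBS short. In long OVA 0 of the 15 genes passed over PBS, and Mcidas was at -0.14 ± 0.21. The difference between the long and short OVA effects was -1.35 ± 0.30 for Mcidas (adjusted p = 0.0206) and -1.46 ± 0.33 for Foxn4 (0.0265), among 1.88% of all genes that passed that test. It was lost without PBS long library 1 or 2 or PBS short library 1 for Mcidas (adjusted p 0.0568 to 0.0611). For Foxn4 it was lost without OVA long library d, OVA short library 1, 2 or 4, any PBS long library, or PBS short library 2 or 3 (0.0541 to 0.0932). The Foxn4 call over MCh short was lost in 7 of 24 alternatives (at most 0.136), among them leaving out OVA short library 1, 2 or 4 or MCh short library 2 or 3. Over MCh short the Gmnc call was lost in 1 of 25 alternatives, a pseudocount of 0.1 (0.0675). The Ccno call was lost in 9 of 25 (0.0510 to 0.136), among them leaving out OVA short library 1, 2 or 4 or MCh short library 1, 2 or 3.

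**Figure D5:**
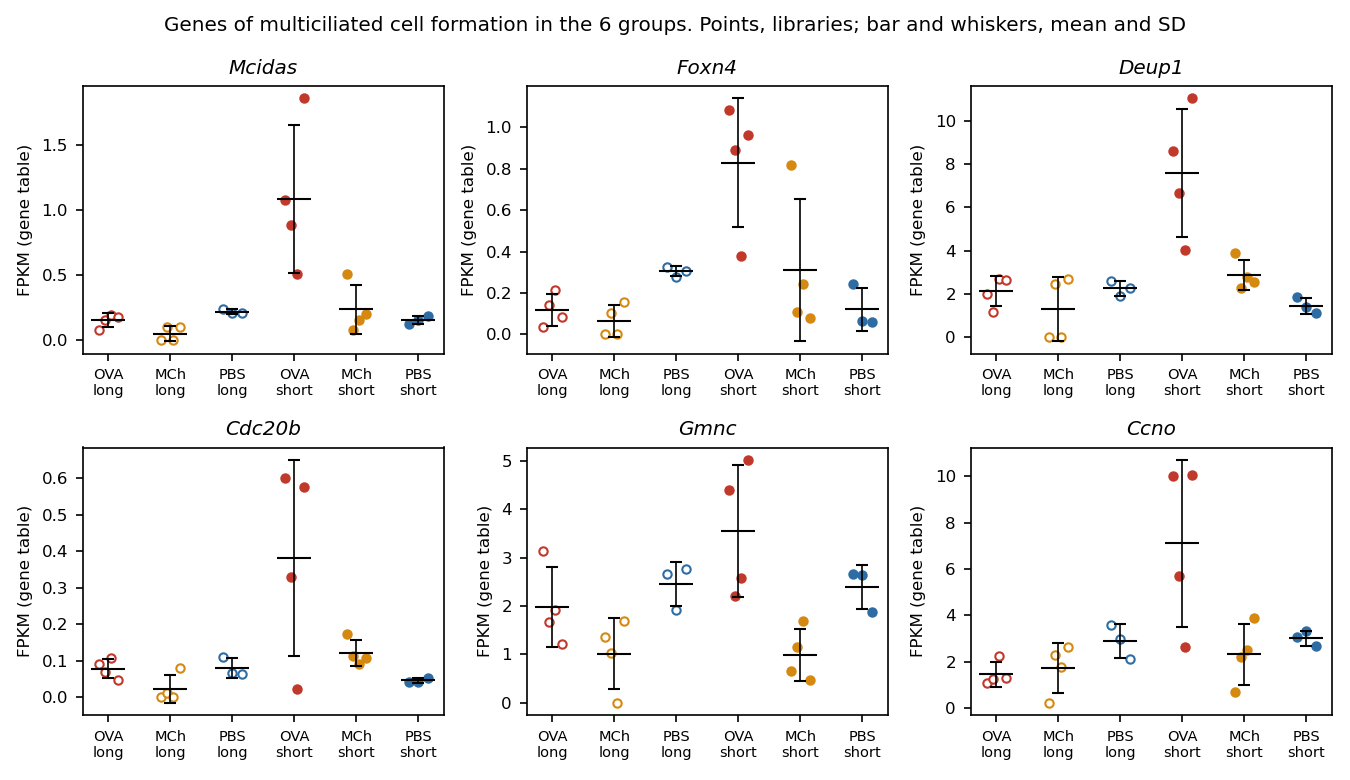
FPKM in the gene table for 6 genes of multiciliated cell formation by group, with library points and the mean ± SD. OVA short libraries stand above PBS short libraries for Mcidas (0.508 to 1.86 against 0.123 to 0.187), Foxn4 and Deup1.

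Of the other cilia lists in short OVA, none had a share past the test above that of all genes (24.2%; 12.4% higher and 11.7% lower). Of 15 tested arm assembly and docking genes 0 passed (median -0.03), of 21 nexin link and central pair genes 0 passed (median -0.30), and of 31 intraflagellar transport genes, which carry cargo along the cilium, 1 rose (Ift20) and 1 fell (Ift172; median -0.19). Of 34 airway multiciliated markers 1 rose, the tubulin gene Tuba1a (median 0.05). Markers of other cells moved in the same lungs: 10 of 12 goblet cell markers rose (summed FPKM 470 to 1749 in OVA short against 13.5 to 110 in PBS short), 5 of 7 leukocyte markers rose, 5 of 12 club cell markers fell and 2 rose, and 7 of 10 alveolar type 1 markers fell. Their part in the axoneme values was not tested.

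After long OVA no axoneme gene passed the test. In limma's fit of OVA vs PBS long 0 of 63 were called, against 1.18% of all genes, 0 had an unadjusted p under 0.05 against 7.42% of all genes, and the median was 0.06 against -0.02 over all genes. Values ran between -0.67 (Tekt5) and 0.31 (Rsph14). All OVA long libraries lay below all PBS long libraries for 3 genes (Cfap20, Dnal4 and Tekt5), against 13.2% of all genes, and above them for 0, against 9.95%. Foxj1 had 16.8, 10.04, 18.9 and 19.1 FPKM in OVA long lungs and 11.7, 12.7 and 13.9 FPKM in PBS long lungs (log2 0.29 ± 0.27). Dnah5 had 8.08, 3.56, 8.37 and 7.53 FPKM in OVA long lungs and 4.68, 5.33 and 5.96 FPKM in PBS long lungs (0.28 ± 0.40). In both genes libraries a, c and d lay above PBS and library b below it, and b was the lowest OVA long library for 57 of the 63. Goblet cell markers were lowest in the same library b, at a sum of 172 FPKM against a group median of 1252 FPKM. No axoneme gene passed the test of the difference between the long and short OVA effects (0 of 63 against 1.88% of all genes, 0.459% higher and 1.42% lower; 1 with an unadjusted p under 0.05 against 15.2%; range -0.78 for Dnah8 to 1.18 for Cfap65).

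After short methacholine no axoneme gene passed limma's test, and 1 gene of the whole table did (0 of 63 against 0.00638%; unadjusted p under 0.05 in 1 against 7.49%). The median was -0.04, and its sign turned with median-of-ratios (0.01) and quantile scaling (0.01). Rsph9 had 4.98, 3.77, 4.23 and 5.93 FPKM in MCh short lungs, against 3.47, 3.16 and 2.26 FPKM in PBS short lungs, with no overlap. That held upward for Rsph9 and Rsph14 only, against 3.24% of all genes, and downward for 0, against 5.52%. Rsph9 did not pass (log2 0.59 ± 0.20, adjusted p = 0.530). Foxj1 had 21.6, 16.02, 17.3 and 11.0 FPKM in MCh short lungs and 14.5, 12.7 and 9.56 FPKM in PBS short lungs (0.39 ± 0.27, adjusted p = 0.756). MCh short library 1 was the highest of its group for 42 axoneme genes and library 4 the lowest for 41. Dnah5 had 7.54 FPKM in library 1 and 1.01 FPKM in library 4, on either side of the other MCh short libraries at 4.05 and 4.91 FPKM.

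Long methacholine gave negative values for 55 of 63 axoneme genes, with 0 past limma's test (0.0638% of all genes, 0.0574% higher and 0.00638% lower) and 9 with an unadjusted p under 0.05 (16.3% of all genes). The median was -0.33 against -0.14 over all genes, and with quantile normalization -0.08 against 0.02. The signs of genes measured in the same libraries are not independent. All MCh long libraries lay below all PBS long libraries for 17 genes, against 10.5% of all genes, and above them for 0, against 2.6%. Rsph1 had 5.09, 9.84, 5.90 and 10.7 FPKM in MCh long lungs and 12.0, 11.2 and 12.4 FPKM in PBS long lungs (log2 -0.62 ± 0.26, adjusted p = 0.262), with no overlap. Cfap70, a protein placed near the outer dynein arms, had the lowest value (-1.69 ± 0.69, adjusted p = 0.260), at 6.43, 12.5, 0.133 and 13.0 FPKM in MCh long lungs and 15.9, 15.9 and 17.8 FPKM in PBS long lungs. Its lowest libraries, a and c, are those with the most genes at 0 in the table. Without the 3 libraries with most genes at 0 the median of the axoneme genes was -0.17. Without MCh long library d 1 axoneme gene passed, where 4.98% of all genes did. Foxj1, at 20.4, 14.5, 8.70 and 12.1 FPKM in MCh long lungs, spanned the PBS long values (0.06 ± 0.27). No axoneme gene passed the test of the difference between the long and short MCh effects, nor did any gene (0%), and 5 had an unadjusted p under 0.05 against 6.31% of all genes.

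Between challenges in the long protocol, OVA gave higher values than MCh for 56 of 63 axoneme genes, with a median of 0.42 against 0.14 over all genes and 0.17 against -0.04 with quantile normalization. Dnah8 was the one past the test, and 15 genes had an unadjusted p under 0.05 against 24.9% of all genes. Next to the threshold stood Rsph1 (0.77 ± 0.24, adjusted p = 0.0612) and Rsph14, a radial spoke gene (1.14 ± 0.35, adjusted p = 0.0580, and listed at 0 in MCh long libraries a and c). Without MCh long library b 8 axoneme genes passed, where 13.1% of all genes did. Without MCh long library d 6 passed, where 15.3% of all genes did, and without OVA long library b 3, where 5.11% did. In the short protocol, OVA gave lower values than MCh for 52 genes (median -0.25 against -0.01 over all genes), and an unadjusted p under 0.05 was seen for 8 against 27.7%. Tekt2 was the one gene with all OVA short libraries below all MCh short libraries, against 6.3% of all genes. Without MCh short library 4, the one with the steepest trend on length, 17 axoneme genes fell in OVA against MCh and Dnah8 did not pass (adjusted p = 0.0837), where 30.8% of all genes passed.

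PBS lungs of the long protocol had higher axoneme values than PBS lungs of the short protocol for 57 of 63 genes. None passed limma's test (0 of 63 against 0.166% of all genes, 0.0191% higher and 0.147% lower; unadjusted p under 0.05 in 2 against 5.45%). The median was 0.27 against 0.05 over all genes, and 0.29 against 0.04 with the length trend removed. All PBS long libraries lay above all PBS short libraries for 22 genes, against 18.9% of all genes, and below them for 1, Rsph3b, against 9.16%. Dnah10 had 3.15, 3.57 and 4.05 FPKM in PBS long lungs, against 1.49, 2.03 and 1.39 FPKM in PBS short lungs (log2 0.94 ± 0.38, adjusted p = 0.736). Dnah2 had 2.28, 2.15 and 2.64 FPKM in PBS long lungs and 1.55, 1.88 and 1.48 FPKM in PBS short lungs (0.42 ± 0.26, adjusted p = 1). Neither overlapped. Mice of the long protocol were older at the end, so protocol and age cannot be told apart. The PBS short libraries enter this comparison and the short OVA one, so the 2 sets of values are not independent.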

How the data were processed

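Whole-lung RNA libraries were made with a stranded total RNA kit, per the labels' protocols. Trim Galore, STAR, DESeq2 and mm10 are named in the submitters' processing notes, without roles or versions. The authors deposited FPKM per gene and per transcript. Gene symbols and 22 value columns were used as deposited, 8 long OVA and MCh columns only by group. Gene-table FPKM fit the length of the gene 2 rows below more often (30.7% of genes within 5%) than the gene's own (8.92%). Levels are therefore compared between genes only in the transcript table. Its pattern across libraries was the same for the 55 axoneme genes with a gene-table mean of at least 1 FPKM (lowest r 0.987). The lower genes are not covered by that value. Fold changes within a gene are touched only through the pseudocount and filter.

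Genes that reached an FPKM of 0.1 in 3 or more libraries were fitted with limma 3.58.1 (R 4.3.3) on log2(FPKM + 0.5), with an intensity trend and 1 coefficient per group over 22 libraries. P-values are two-sided, adjusted by Benjamini-Hochberg over all 15682 genes and called under 0.05. The titles name biological replicates without naming animals, and p-values measure the spread between these samples. That spread is 1 estimate per gene shared by all 6 groups, the MCh libraries of low array weight included. It is not the spread of the compared groups alone. Depth came from whole-fragment steps of low transcript values, of which 45.8% to 60.7% per library lay within 5% of a whole number of fragments. Named genes were Foxj1, the tektins, the 2 highest of each role by mean FPKM in the gene table, genes past the test, a fixed set of ciliary dyskinesia genes and partners of Foxj1; genes outside the rule are named for extremes or for lying next to the test. Members and lists were chosen with earlier results of these data known. The script was tested on simulated data. Alternatives were other pseudocounts, filters and scalings, transcript sums, array weights, fits of the groups compared alone, a replicate block, removal of each library's length trend (a spline on log length) and leaving out libraries.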

Additional observations from a re-analysis of the deposited data

Results flagged for a closer look

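Each of the 24 named genes was examined for a library far from the rest in each group of 4, 96 groups in all, and 4 were found (chance gives about 1 in 20). Cfap221, of the central pair, was at 3.55 FPKM in OVA long library b, against 7.69 FPKM in the next library. Dnaic2, an intermediate chain, was at 3.76 FPKM in the same library, against 6.31 FPKM in the next. Tekt4 was at 5.43 FPKM in MCh long library a, against 3.07 FPKM in the next. Tekt5 was listed at 0 FPKM in MCh short library 1, against 3.21 FPKM in the next, and this library is among the 3 with most genes at 0.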

How the results depend on the processing

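Counts of axoneme genes past the test depended on the setting. For OVA vs PBS short (2) they were 18 with array weights, 19 in a fit of the groups alone, 21 without the libraries of array weight under 0.25, 7 without the 3 libraries with most genes at 0, 5 with the length trend removed and 6 (1 higher, 5 lower) with quantile normalization. All genes passed at 51.0%, 48.4%, 54.0%, 43.0%, 21.2% and 28.0% in these settings, above the share of axoneme genes in each (28.6%, 30.2%, 33.3%, 11.1%, 7.94% and 9.52%). They were 1 with a pseudocount of 1 and 0 with a pseudocount of 0.1, with no filter or with transcript sums. Median-of-ratios scaling gave 2 higher and 0 lower, against 1 and 1. For OVA vs MCh short (1) they were 31, 0, 21, 3, 2 and 4 in the first 6 of these settings in that order, and 0 with no filter, where all genes passed at 57.3%, 11.0%, 49.3%, 25.2%, 16.7%, 18.5% and 13.1%. For OVA vs MCh long (1) they were 4 with array weights, 2 with the length trend removed, and 0 in a fit of the groups alone and with quantile normalization (all genes 13.7%, 8.44%, 1.86% and 5.73%). PBS long vs short (0) gave 8 with array weights, 1 in a fit of the groups alone and 3 without the libraries of low weight (all genes 10.6%, 1.07% and 7.73%). The OVA effect long vs short (0) gave 12, 4 and 6 in the same settings (all genes 31.2%, 28.8% and 30.7%), and MCh vs PBS long (0) gave 1 with array weights (all genes 0.95%). The cause was not tested.

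Settings chosen after seeing the data gave, for OVA vs PBS short, 5 with the 14 numbered libraries alone, 10 without MCh short library 4, 17 with the length trend removed and array weights, and 4 with the length trend removed and transcript sums (all genes 30.4%, 32.0%, 47.8% and 20.5%). For OVA vs MCh short they gave 2, 17, 22 and 2 (all genes 19.4%, 30.8%, 48.9% and 16.5%), and for OVA vs MCh long 2 without MCh short library 4, 7 with the length trend removed and array weights and 2 with the length trend removed and transcript sums (all genes 9.34%, 16.2% and 8.68%). The length trend removed and array weights gave 5 for PBS long vs short, 6 for the OVA effect, 1 for MCh vs PBS long and 1 for the MCh effect (all genes 10.3%, 22.8%, 2.23% and 0.153%), and the OVA effect had 2 without MCh short library 4 (all genes 10.2%).

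Leaving out 1 library at a time gave 0 to 1 for OVA vs PBS short, 0 to 17 for OVA vs MCh short, 1 to 8 for OVA vs MCh long and 0 to 1 for MCh vs PBS long, and 0 throughout in the other 5. Same-numbered libraries had r of -0.27 to 0.356 (over 0.1 in 1 of 13 pairs), and libraries of unlike number had -0.327 to 0.405. Whether the numbers pair the samples cannot be told from these values, which are deviations from means of 3 or 4 libraries. With the replicate block the counts were 1 for OVA vs PBS short (neither Dnah8 nor Dnah2; all genes 23.1%), 0 for OVA vs MCh short, 0 for MCh vs PBS short and 0 for PBS long vs short. Over named genes 4834 values kept direction and call, 97 gained a call, 37 lost one and 327 changed sign without passing. The 4834 include all values that passed in neither fit, so they do not measure how stable the calls were. All 37 losses fell on the only calls among the named genes. These were Dnah2 in OVA over PBS short and Dnah8 in OVA over PBS short, MCh short and MCh long. Genes near 1 FPKM and the sparse libraries limit the rest.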
